A study of Mus musculus with 7 samples.

Results

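The genes described are 39 genes of the smooth muscle contractile apparatus and of the focal adhesion, taken by name from the 32544 genes of the deposited table. All 39 were found and all 39 passed the filter for low values. Their levels were compared in the whole abdominal aorta of male mice of the Apoe-/- strain. Without apolipoprotein E these animals are prone to atherosclerosis. All mice were fed a high-fat diet for 12 weeks and received 50 mg/kg of nanoparticle by intravenous injection 1 time a week. The particle was ITA-LNP in 3 libraries and Ctrl-LNP in 4, called control-LNP here. LNP is the usual short form of lipid nanoparticle, and ITA is read from the series title as itaconate, a metabolite of activated macrophages. The sample titles write NP for both particles. Whether the libraries stem from different mice is not in the labels, and the p-values then reflect only library-to-library spread, which may be technical.

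In smooth muscle, actin filaments of Acta2 slide along myosin filaments of Myh11 once the regulatory light chain Myl9 has been phosphorylated by the kinase Mylk. A phosphatase that contains Ppp1r12b, and that Ppp1r14a inhibits, reverses this step. Integrins pass the force to the matrix through talin, vinculin, alpha-actinin and filamin, and LIM proteins such as zyxin join these plaques under load. Many of the contractile genes are switched on by serum response factor with its partner myocardin at a DNA element called the CArG box. Several of the adhesion genes are also made by platelets and leukocytes, which build contractile actin networks of their own.

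The libraries held 5077073 to 7281721 reads. Levels are given in CPM, reads per 1000000 counted reads. Because the libraries were made from the 3′ end of transcripts, gene length does not enter a level. The libraries labelled control-LNP carried many blood cell transcripts. The 12 platelet markers summed to 5978 to 7439 CPM in them and to 94.0 to 183 CPM in the ITA-LNP libraries, with 11 of 12 lower with ITA-LNP. The 8 pan-leukocyte markers summed to 4165 to 5394 against 389.9 to 435 CPM, with 7 of 8 lower, and the 7 red cell markers to 12389 to 44806 against 2550.1 to 4229 CPM, with 4 of 7 lower and Slc4a1 at 0 reads in all ITA-LNP libraries. In the opposite direction, the 7 fibroblast markers summed to 123 to 290.3 CPM in the control-LNP and 19004 to 22047 CPM in the ITA-LNP libraries (6 of 7 higher), the 6 pericyte markers to 7.62 to 21.9 against 1242 to 1597 CPM (5 of 6 higher) and the 6 endothelial markers to 107 to 367 against 966 to 1199.9 CPM (4 of 6 higher). Pecam1 held most of the endothelial sum in the control-LNP libraries, with 204 of 214 CPM as means, and did not pass (226 CPM with ITA-LNP). Cdh5, Egfl7, Ptprb and Kdr had control-LNP means of 0.263% to 3.67% of their ITA-LNP means, and the scarce Tie1 of 55.7%. All genes of these 6 lists had reads in both groups except Slc4a1. The part of these cell markers in the results below was not tested, and with 1 composition in each group the treatment and the makeup of the samples cannot be told apart. In whole tissue, fewer smooth muscle cells and less RNA per cell cannot be told apart either. Control-LNP replicate 2 stood apart from the other control libraries, with 10846 genes detected against 14232 to 15333.

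The 39 genes together took 3.48% to 3.88% of all reads in the ITA-LNP libraries and 0.577% to 0.736% in the control-LNP libraries. Their sum was 37145 ± 2056 CPM against 6358 ± 709.9 CPM (SD, n = 3 and 4). Of the 39 genes, 30 were higher and 1 was lower with ITA-LNP, and 8 did not pass (limma, adjusted p under 0.05). Across all 12636 genes tested, 10.3% were higher and 5.15% lower. The median log2 fold change, ITA-LNP minus control-LNP on the log2(CPM + 1) scale, was 3.83 over the 39 genes and 0.15 over all genes tested. Values of the 2 groups did not overlap for 31 genes with ITA-LNP above, against 19.1% of all genes, and for 2 genes with ITA-LNP below, against 10.7%. Without control-LNP replicate 2, 31 of the genes were higher (15.4% of all genes) and 3 were lower (16.0%). Centring each library on its median lowered the median fold change of all genes by about 1 unit, from 0.15 to -0.98. It left 20 of the 39 higher and 0 lower, while the split over all genes went from 1306 higher and 651 lower to 741 and 1249, and to 1614 and 1401 with quantile normalization.

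**Figure D1:**
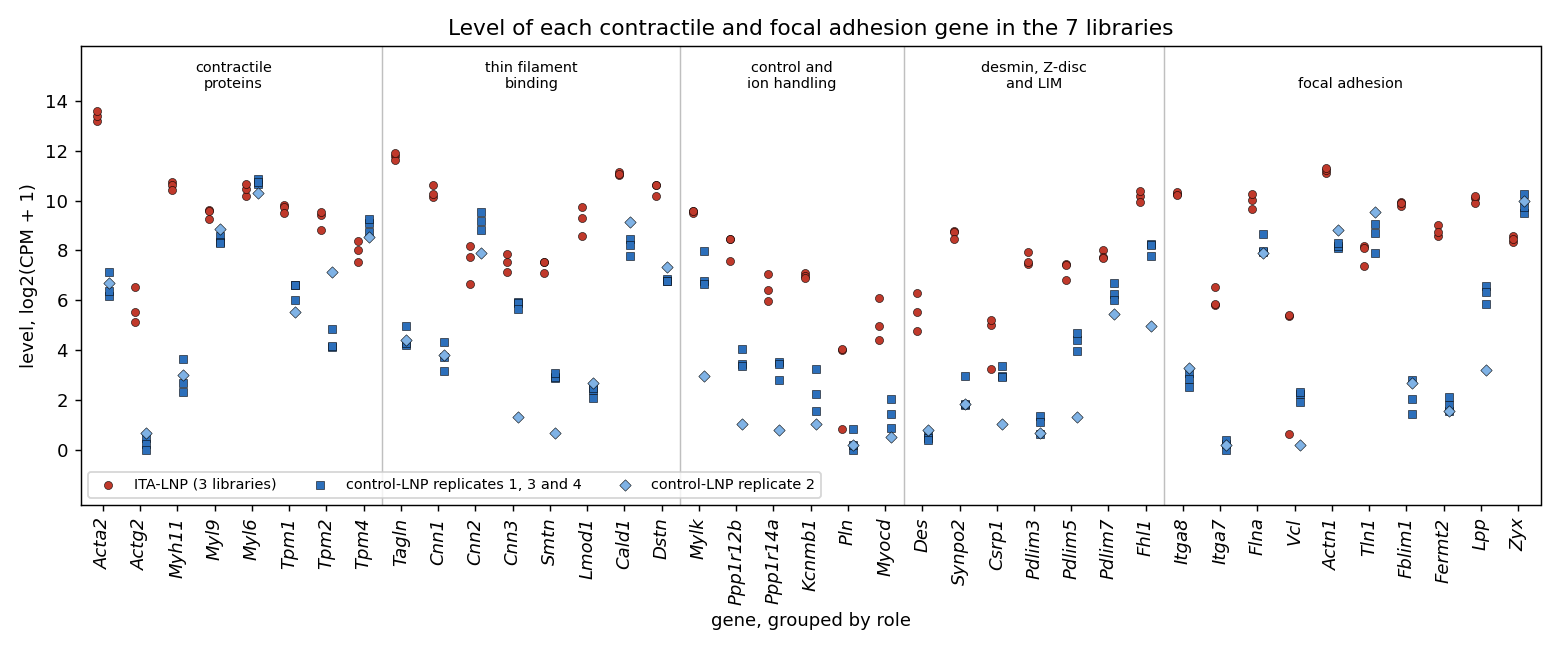
Level of each of the 39 genes on the log2(CPM + 1) scale, grouped by role, with 1 point per library. The ITA-LNP points lie above all control-LNP points for 31 genes, and control-LNP replicate 2 lies below the other control libraries for 18.

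The genes differed in how much of their ITA-LNP level was found in the control-LNP libraries. As a description made after the values were seen, 13 genes had a control-LNP mean of at most 2% of the ITA-LNP mean, from 0.248% for Itga7 to 1.02% for Des. The next gene, Pln, was at 2.64%. For another 11 genes the percentage was between 2.64% and 9.72%, for 9 between 10.2% and 31.5%, and for Myl9 it was 51.6%. The remaining 5 genes, Myl6, Tpm4, Tln1, Cnn2 and Zyx, had control-LNP means of 116% to 273% of the ITA-LNP mean. The 13 lowest genes made up 55.4% to 59.9% of the summed level of all 39 in the ITA-LNP libraries and 2.10% to 3.14% in the control-LNP libraries. The 5 highest made up 6.09% to 6.87% in the former and 60.9% to 66.2% in the latter. Because the genes were sorted by the levels of these same libraries, the direction of both differences follows from the sorting. Acta2 was the most abundant of the 39 in every ITA-LNP library, and Myl6 in every control-LNP library. The share of all genes at or below 2% was not counted. The fibroblast markers stood at 0.594% (Lum) to 1.49% (Pdgfra), except Pi16 at 46.2%. The pericyte markers stood at 0.174% (Cspg4) to 0.665% (Abcc9), except Kcnj8 at 12.8%. A percentage this low is thus not particular to the 39 genes.

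**Figure D2:**
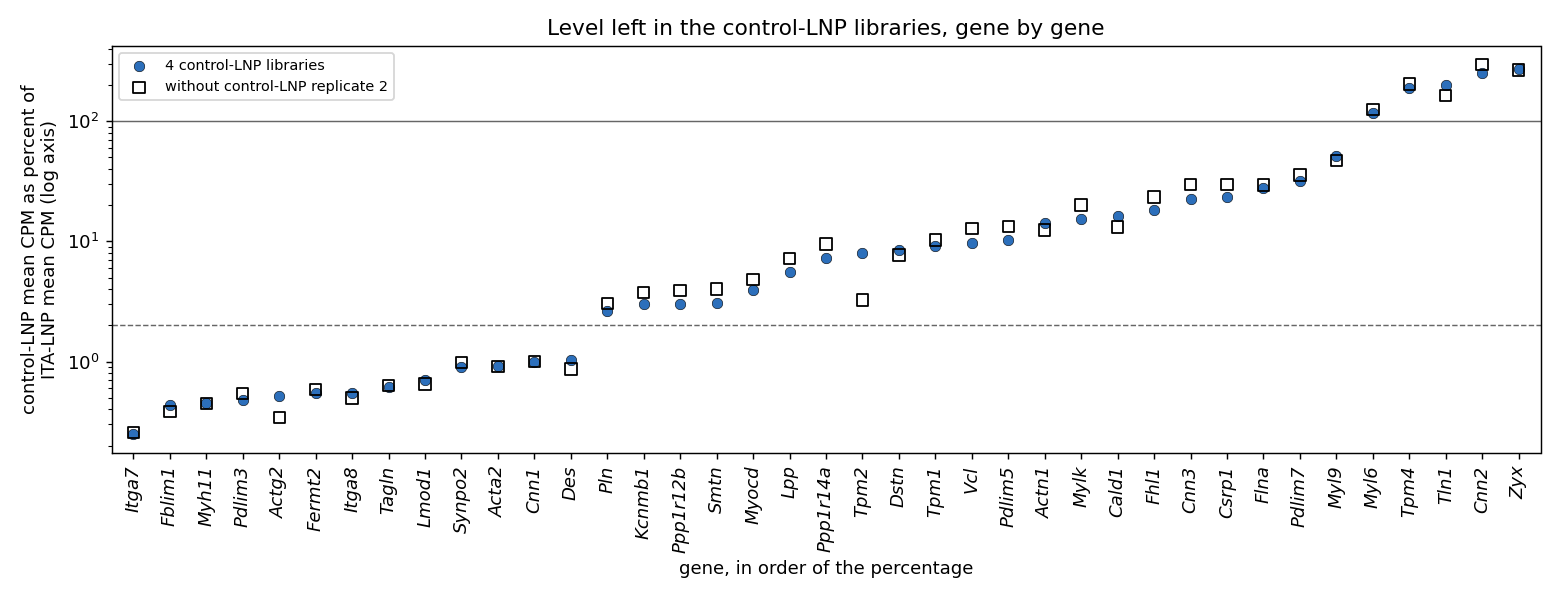
Control-LNP mean level as a percentage of the ITA-LNP mean (log axis) for each gene in rising order, with all 4 control libraries (circles) and without replicate 2 (squares). The dashed line marks 2% and the solid line 100%; 13 genes lie below the former and 5 above the latter.

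Promoter windows from RefSeq (GRCm38.p6), from 250 bases before to 50 bases after a gene's start, were matched for 34 of the 39 genes in 42 windows. Those of Actg2, Myh11, Tagln, Myocd and Itga7 were not matched. An exact CArG box was found in 6 of the 34 genes (17.6%), against 1.81% of 27025 genes with a window. The CArG pattern is the same on both strands, although the letters of a single box can differ between them. The hexamer CATTCC, the core of the element bound by TEAD factors, was found on either strand in 12 of the 34 genes (35.3%), against 16.6% of all. The 6 genes with a CArG box were Myl9, Myl6, Cnn2, Fermt2, Fhl1 and Vcl, with control-LNP percentages from 0.548% for Fermt2 to 252% for Cnn2. Fermt2 was the only one of them among the 13 genes at up to 2%, a class that also holds 4 of the 5 genes with no matched window. The windows of 4 of these 6 are shown because these genes share the box and differ in where they were measured, with Fermt2 nearly limited to the ITA-LNP libraries and the other 3 present in both groups. The box is in capitals. It begins 161 bases before the start in Myl9 (chr2:156775214-156775513, plus strand), 50 bases before it in Myl6 (chr10:128492960-128493259, minus strand), 56 bases before it in Cnn2 (chr10:79988350-79988649, plus strand) and 204 bases before it in Fermt2 (chr14:45530016-45530315, minus strand). Myl6 and Fhl1 each have a second RefSeq window, and neither of these holds a box. Both Myl6 windows lie inside the annotated gene. The one without a box (chr10:128493837-128494136) is nearer to its 5′ end (128494145), and the printed one is at a start farther inside. Both Fhl1 windows, with the box at chrX:56779433-56779732, also lie inside the annotated gene, which begins at 56731787.
Myl9: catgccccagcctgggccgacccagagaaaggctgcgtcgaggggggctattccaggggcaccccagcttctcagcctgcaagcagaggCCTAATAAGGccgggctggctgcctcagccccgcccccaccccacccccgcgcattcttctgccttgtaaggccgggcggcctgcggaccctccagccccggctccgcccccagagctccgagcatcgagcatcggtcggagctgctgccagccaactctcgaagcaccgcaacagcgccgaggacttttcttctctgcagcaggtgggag
Myl6: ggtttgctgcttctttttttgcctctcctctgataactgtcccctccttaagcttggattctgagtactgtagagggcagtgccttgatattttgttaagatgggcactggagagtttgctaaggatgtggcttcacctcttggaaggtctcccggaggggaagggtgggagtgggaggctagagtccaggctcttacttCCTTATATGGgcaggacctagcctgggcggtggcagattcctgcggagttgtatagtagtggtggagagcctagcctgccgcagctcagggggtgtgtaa
Cnn2: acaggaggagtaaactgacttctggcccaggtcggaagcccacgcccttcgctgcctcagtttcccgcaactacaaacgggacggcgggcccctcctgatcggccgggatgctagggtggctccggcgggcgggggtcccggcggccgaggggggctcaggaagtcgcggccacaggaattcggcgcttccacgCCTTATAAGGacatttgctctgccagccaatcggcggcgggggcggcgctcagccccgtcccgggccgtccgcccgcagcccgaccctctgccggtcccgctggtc
Fermt2: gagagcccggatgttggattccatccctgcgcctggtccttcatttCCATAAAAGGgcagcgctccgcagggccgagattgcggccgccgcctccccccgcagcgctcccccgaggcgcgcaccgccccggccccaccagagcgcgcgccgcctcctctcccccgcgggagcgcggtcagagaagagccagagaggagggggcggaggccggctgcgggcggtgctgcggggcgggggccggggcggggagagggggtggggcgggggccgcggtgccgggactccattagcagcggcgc
The boxes themselves are CCTAATAAGG in Myl9, CCTTATATGG in Myl6, CCTTATAAGG in Cnn2 and CCATAAAAGG in Fermt2. The letters of the Cnn2 box are also those of the Vcl box, which begins 227 bases before its start. These matches are descriptions of the sequence and not evidence of binding.

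Among the contractile proteins, 6 of 8 genes were higher with ITA-LNP and 2 did not pass. Acta2, smooth muscle alpha-actin (chromosome 19, 34241090 to 34255590 on mm10), stood at 9341, 10626 and 12439.8 CPM in ITA-LNP replicates 1 to 3. In control-LNP replicates 1 to 4 it stood at 139, 102, 71.9 and 82.3 CPM. The groups did not overlap, and the lowest ITA-LNP library was far above the highest control library (log2 fold change 6.79 ± 0.27 SE, adjusted p = 2.65e-06). Myh11, the smooth muscle myosin heavy chain (chromosome 16, 14194535 to 14291372), was at 1709, 1583 and 1391 CPM against 11.6, 7.03, 4.04 and 5.41 CPM. The groups lay far apart (7.68 ± 0.50, adjusted p = 2.26e-05). Actg2, the gamma-actin of visceral smooth muscle, was much scarcer than Acta2, at 91.9, 33.6 and 45.3 CPM with ITA-LNP, and rested on 7 control-LNP reads in all (5.38 ± 0.84, adjusted p = 0.00223).

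The light chains behaved otherwise. Myl9, the regulatory light chain, was at 605, 797 and 758 CPM against 385, 467, 319 and 315 CPM. Its groups did not overlap, but the difference was the smallest of those that passed (0.96 ± 0.26, adjusted p = 0.0359). It lost the call when any ITA-LNP library was left out, and likewise for control-LNP replicates 1, 3 and 4, with an adjusted p of at most 0.130, and with median centring the sign changed to -0.17. Myl6, the essential light chain that non-muscle myosin also carries, was at 1153, 1399 and 1617 CPM against 1634, 1261, 1853 and 1720.1 CPM. The groups overlapped (-0.22 ± 0.20, adjusted p = 0.543, 95% interval -0.67 to 0.24), and the sign changed to 0.20 with quantile normalization. Of the 50-base words at the 3′ end of Myl6 transcripts, 28.1% also occur in transcripts of 5 predicted genes, so its reads may have been split or dropped in the counting.

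The tropomyosins, which wind along actin, went in different directions. Tpm1 was at 899, 860 and 730 CPM against 95.7, 45.6, 64.0 and 96.6 CPM (3.50 ± 0.38, adjusted p = 0.000383). Tpm2, the beta-tropomyosin, was at 451, 683 and 738 CPM against 27.6, 138, 16.3 and 16.9 CPM (4.20 ± 0.72, adjusted p = 0.00362), and the high control value was that of replicate 2. Without it the log2 fold change of Tpm2 was 4.88 (adjusted p = 4.06e-05) and its control-LNP percentage 3.25% in place of 7.97%. Tpm4, which non-muscle cells and platelets also use, was at 260.2, 333 and 185 CPM against 428, 372, 544 and 614 CPM. All control-LNP values of Tpm4 lay above all ITA-LNP values, but the change of -0.93 ± 0.32 did not pass (adjusted p = 0.0917), and did so without control-LNP replicate 2 (-1.05, adjusted p = 0.0199).

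**Figure D3:**
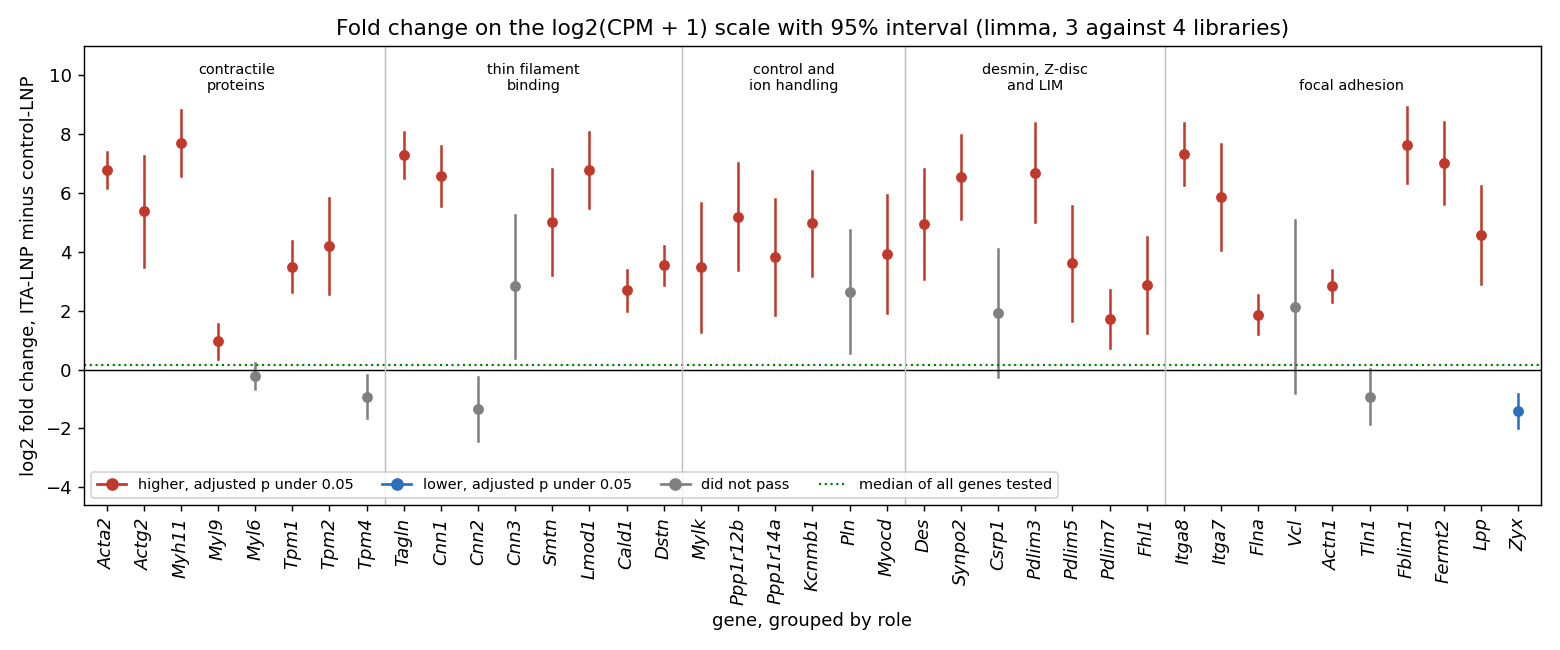
Log2 fold change of each gene, ITA-LNP minus control-LNP on the log2(CPM + 1) scale, with its 95% interval from limma; the dotted line is the median of all genes tested, 0.15. Of the 39 genes, 30 were higher (red), Zyx was lower (blue) and 8 did not pass (grey).

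Of the 8 proteins that bind the thin filament, 6 were higher and 2 did not pass. Tagln, transgelin (chromosome 9, 45929619 to 45936058), was at 3551, 3162 and 3796 CPM against 30.3, 20.03, 17.7 and 18.4 CPM (7.30 ± 0.35, adjusted p = 5.84e-06). The 3′ exons of Tagln overlap Pcsk7 on the other strand, which was at 13.1 against 8.17 CPM, and the strand setting is not given in the sources used here. Zyx and Vcl, described with their values, carry this doubt too, as do Pln, Itga7, Des and Mylk. Of their partners on the other strand, Cep85l beside Pln was at 1.88 against 4.07 CPM and Mettl7b beside Itga7 at 0 reads in all 7 libraries, while those of Des and Mylk are the antisense genes Gm15179 and Gm21691. Lmod1, a leiomodin that nucleates actin filaments, varied more among the ITA-LNP libraries, at 378, 855 and 633 CPM, and was at 3.27 to 5.38 CPM in the control libraries (6.79 ± 0.58, adjusted p = 0.00011). Smtn, smoothelin, was at 186, 185 and 138 CPM against 6.30, 0.598, 6.54 and 7.54 CPM (5.01 ± 0.81, adjusted p = 0.00261). Cald1, caldesmon, and Dstn, the actin-severing protein destrin, were at 2181 against 357 CPM and 1438 against 123 CPM as group means, with log2 fold changes of 2.69 ± 0.31 and 3.54 ± 0.29.

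The 3 calponins, which bind actin and slow its sliding on myosin, separated. Cnn1, the smooth muscle form, was at 1117, 1212 and 1588 CPM against 18.9, 12.9, 12.1 and 8.04 CPM (6.59 ± 0.46, adjusted p = 3.78e-05). Cnn2, a form that blood cells also make, was at 99.6, 211 and 289 CPM against 746, 235, 455 and 578 CPM. Its groups overlapped through control-LNP replicate 2 (-1.34 ± 0.49, adjusted p = 0.105), and without that replicate it was lower (-1.67, adjusted p = 0.0145). Cnn3, the acidic form, was at 187, 233 and 138 CPM against 59.3, 1.495, 57.7 and 49.5 CPM. Every ITA-LNP value of Cnn3 exceeded every control value (2.82 ± 1.08, adjusted p = 0.119), and without control-LNP replicate 2 it was higher (1.70, adjusted p = 0.00294). Of the 3′ words of Cnn3, 14.0% also occur in 2 predicted genes.

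Of the 6 genes of contraction control and ion handling, 5 were higher and Pln did not pass. Mylk, the light chain kinase, was the steadiest of the 39 across ITA-LNP libraries at 769, 729 and 776 CPM. The control libraries spread widely, with 249.6, 6.88, 108 and 101 CPM (3.47 ± 0.98, adjusted p = 0.0395). Mylk lost the call when any ITA-LNP library was left out, and without control-LNP replicate 3 or 4 as well, with an adjusted p of at most 0.128. Without control-LNP replicate 2 the log2 fold change was 2.43 (adjusted p = 0.00156), and without replicate 1 it was 4.10 (adjusted p = 0.0219). Ppp1r12b, a myosin-targeting subunit of the phosphatase, was at 349.9, 355 and 190.1 CPM against 9.35 to 15.8 CPM in control-LNP replicates 1, 3 and 4 and 1.05 CPM in replicate 2 (5.19 ± 0.81, adjusted p = 0.00227). Without replicate 2 its log2 fold change was 4.54 (adjusted p = 0.000121). Ppp1r14a, the phosphatase inhibitor CPI-17, was at 62.0, 84.6 and 131 CPM against 10.6, 0.748, 5.96 and 9.84 CPM (3.83 ± 0.88, adjusted p = 0.0151), and did not pass without ITA-LNP replicate 1, 2 or 3 (up to 0.0856). Without control-LNP replicate 2 it was 3.22 (adjusted p = 0.00149).

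Kcnmb1, the beta subunit of the large calcium-activated potassium channel, was at 136, 125 and 117 CPM against 8.47, 1.05, 1.92 and 3.77 CPM (4.97 ± 0.80, adjusted p = 0.00263). Myocd, the myocardin coactivator, was scarce at 66.8, 30.7 and 20.3 CPM against 3.15, 0.449, 1.73 and 0.820 CPM (3.94 ± 0.89, adjusted p = 0.0143). It did not pass without ITA-LNP replicate 1 or control-LNP replicate 4 (up to 0.0560). Pln, phospholamban, the brake on the calcium pump of the sarcoplasmic reticulum, was at 0.784, 15.03 and 15.5 CPM against 0.788, 0.1495, 0 and 0.164 CPM. The low value of ITA-LNP replicate 1 matched the highest control library, and Pln rested on 220.0 and 6 reads in the groups (2.65 ± 0.93, adjusted p = 0.0930). Without ITA-LNP replicate 1 it was higher (3.71, adjusted p = 0.0124).

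Of the 7 genes for desmin, Z-disc and LIM proteins, 6 were higher and Csrp1 did not pass. Synpo2, synaptopodin 2, was at 444, 423 and 351 CPM against 6.89, 2.54, 2.50 and 2.62 CPM (6.54 ± 0.63, adjusted p = 0.000216), and Pdlim3, the actinin-associated LIM protein, at 175, 182 and 247 CPM against 0.577 to 1.58 CPM (6.70 ± 0.75, adjusted p = 0.000446). Des, desmin, reached only 26.7, 45.5 and 78.3 CPM, against 12 reads in all control libraries together (4.96 ± 0.84, adjusted p = 0.00323). These 3 genes had almost no signal in the control libraries. Fhl1 was present in both groups, at 1158, 1352 and 973 CPM against 304, 30.2, 219 and 293 CPM. Fhl1 passed at 2.87 ± 0.72 (adjusted p = 0.0238), Pdlim5 at 3.61 ± 0.87 (0.0196) and Pdlim7 at 1.71 ± 0.44 (0.0264). Each of these 3 LIM proteins did not pass when any 1 ITA-LNP library was left out, and Pdlim7 also without control-LNP replicate 3 or 4 (largest adjusted p 0.0980, 0.0879 and 0.107 in the order given). Without control-LNP replicate 2, which was low for Fhl1 and Pdlim5, the log2 fold change was 2.09 for Fhl1 (adjusted p = 0.000397) and 2.85 for Pdlim5 (adjusted p = 0.000741). Csrp1, a LIM protein of smooth muscle, was at 31.2, 8.55 and 36.0 CPM against 6.89, 1.05, 6.54 and 9.18 CPM, and its groups overlapped through ITA-LNP replicate 2 (1.92 ± 0.97, adjusted p = 0.223). Several of these genes are also made in skeletal and heart muscle. The 16 striated muscle markers summed to 11.4 to 38.1 CPM in the ITA-LNP and 1.35 to 15.6 CPM in the control-LNP libraries. Of them Myh4, Tnnc2 and Mb were at 0 reads in all 7 libraries, and of the 2 tested, Tnnt2 and Tnnt3, neither passed. Tnnt2 stood at 17.7, 18.7 and 0.275 CPM in ITA-LNP replicates 1 to 3, against 0 to 0.598 CPM in the control libraries. Its adjusted p was 0.128, and it passed without ITA-LNP replicate 3 (limma, adjusted p = 0.00913). The groups overlapped for Tnnt3 (adjusted p = 0.479). Some untested markers went the opposite way at low levels, such as Mylpf, with 0 ITA-LNP reads against a control-LNP mean of 2.16 CPM.

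Of the 10 focal adhesion genes, 7 were higher, 1 was lower and 2 did not pass. Itga8, the integrin alpha8 chain of smooth muscle (chromosome 2, 12106632 to 12301922), was at 1217, 1304 and 1191 CPM against 7.48, 8.82, 4.81 and 6.23 CPM (7.33 ± 0.47, adjusted p = 2.03e-05). Itga7, a laminin-binding integrin chain, was at 55.5, 57.2 and 91.2 CPM, with 4 reads in all control libraries together (5.85 ± 0.80, adjusted p = 0.00127). Fblim1, which links filamin to kindlin at the plaque, was at 876, 979.5 and 946 CPM against 5.91, 5.38, 1.73 and 3.12 CPM (7.63 ± 0.58, adjusted p = 6.44e-05). Fermt2, kindlin-2, whose promoter window is given above, was at 382, 515 and 427 CPM against 3.35, 1.94, 1.92 and 2.46 CPM (7.02 ± 0.62, adjusted p = 0.000128). These 4 genes stood in the control libraries at 0.248% to 0.553% of their ITA-LNP level. Lpp, a zyxin relative, was at 1085, 949 and 1156 CPM against 93.4, 8.22, 56.2 and 80.5 CPM (4.56 ± 0.74, adjusted p = 0.00277). The low control value was that of replicate 2, without which the log2 fold change was 3.80 (adjusted p = 3.95e-05).

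Apart from Vcl, the actin linkers were present in both groups. Actn1, alpha-actinin 1, was at 2199, 2406 and 2504 CPM against 276, 455, 292 and 313 CPM (2.85 ± 0.24, adjusted p = 0.000103). Flna, filamin A, was at 1031, 1225 and 804 CPM against 404, 235, 244 and 252 CPM (1.86 ± 0.30, adjusted p = 0.00253). Tln1, talin 1, went the other way without passing, at 286, 275 and 164 CPM against 539, 740.0, 239.8 and 410.0 CPM (-0.92 ± 0.42, adjusted p = 0.180, 95% interval -1.87 to 0.02). Zyx, zyxin (chromosome 6, 42349630 to 42360213), was the member that was lower with ITA-LNP, at 324, 379.8 and 348 CPM against 1238, 1012, 726 and 851 CPM. Its lowest control library stood above its highest ITA-LNP library. The change was -1.42 ± 0.26 (adjusted p = 0.00445), and it did not pass with median centring (-2.55, adjusted p = 0.146). The 3′ exons of Zyx overlap Epha1 on the other strand, which was at 23.1 against 1.42 CPM. Vcl, vinculin, was low and uneven, at 40.8, 41.4 and 0.549 CPM against 3.74, 0.1495, 4.04 and 2.79 CPM. ITA-LNP replicate 3 lay below 3 of the 4 control libraries, and Vcl did not pass (2.13 ± 1.31, adjusted p = 0.326). Without ITA-LNP replicate 3 its log2 fold change was 3.72 (adjusted p = 0.0656). The gene overlaps Ap3m1 on the other strand at its 3′ end, which was at 676 against 136 CPM.

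Apart from the 1 CPM added to each level, ratios of related genes within a library do not depend on how the library was scaled. The 13 pairs were compared with exact permutation tests (two-sided, 35 arrangements of the labels), and 7 reached the smallest p the design allows, 0.0286, and none passed after adjustment over the 13 pairs (adjusted p = 0.0531). With 4 CPM in place of 1 CPM added to both levels, 8 pairs passed. Whether any pair passes turns on how many pairs reach the smallest p, and not on the size of a difference. Passing or failing therefore says little about any single pair. The log2 ratio of Cnn1 to Cnn2 was 3.47, 2.51 and 2.46 with ITA-LNP and -5.23, -4.09, -5.12 and -6.00 in the control-LNP libraries. Cnn1 was thus the more abundant calponin in each ITA-LNP library and Cnn2 in each control library. The log2 ratio of Tpm1 to Tpm4 was 1.79, 1.37 and 1.97 against -2.15, -3.00, -3.07 and -2.65, and changed sign between the groups in the same way. The log2 ratio of Acta2 to Actb, the cytoplasmic actin, was 1.204, 1.44 and 1.61 against -6.52, -5.81, -6.39 and -6.91.

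The widest gap was between the kindlins. The log2 ratio of Fermt2 to Fermt3, the kindlin of blood cells, was 7.51, 8.34 and 8.11 with ITA-LNP and -5.11, -6.50, -5.32 and -5.13 in the control-LNP libraries. For Pdlim3 to Pdlim7 the mean log2 ratio was -0.17 ± 0.41 against -5.15 ± 0.37, for Tln2 to Tln1 -3.90 ± 0.68 against -7.29 ± 1.39, and for Itga8 to Itga7 4.20 ± 0.44 against 2.73 ± 0.29 (SD, n = 3 and 4). The added 1 CPM bears on each of these ratios in which a gene was scarce. Itga8, Itga7, Pdlim3 (0.577 to 1.58 CPM) and Tln2 (0.1495 to 5.91 CPM) were scarce in the control libraries, and Fermt3 (0.549 to 1.10 CPM) in the ITA-LNP libraries. For Itga8 to Itga7 the direction itself depends on the added 1 CPM. Without it, the ITA-LNP mean was 181 times the control-LNP mean for Itga8 and 403 times for Itga7. In plain CPM the ratio was thus higher in the control-LNP means, which rest on 4 reads of Itga7. Tpm2 to Tpm4 and Myl9 to Myl6 did not overlap between the groups either (p = 0.0571 for each, exact permutation test). The ratios of Cnn1 to Cnn3, Tpm1 to Tpm2 and Acta2 to Actg2 overlapped between the groups (p = 0.0857, 0.600 and 0.0571, exact permutation test). For Acta2 to Actg2 the mean log2 ratio was 7.66 with ITA-LNP and 6.24 in the control-LNP libraries, and this direction too depends on the added 1 CPM. In plain CPM the ITA-LNP mean was 109 times the control-LNP mean for Acta2 and 192 times for Actg2, which rests on 7 control-LNP reads.

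**Figure D4:**
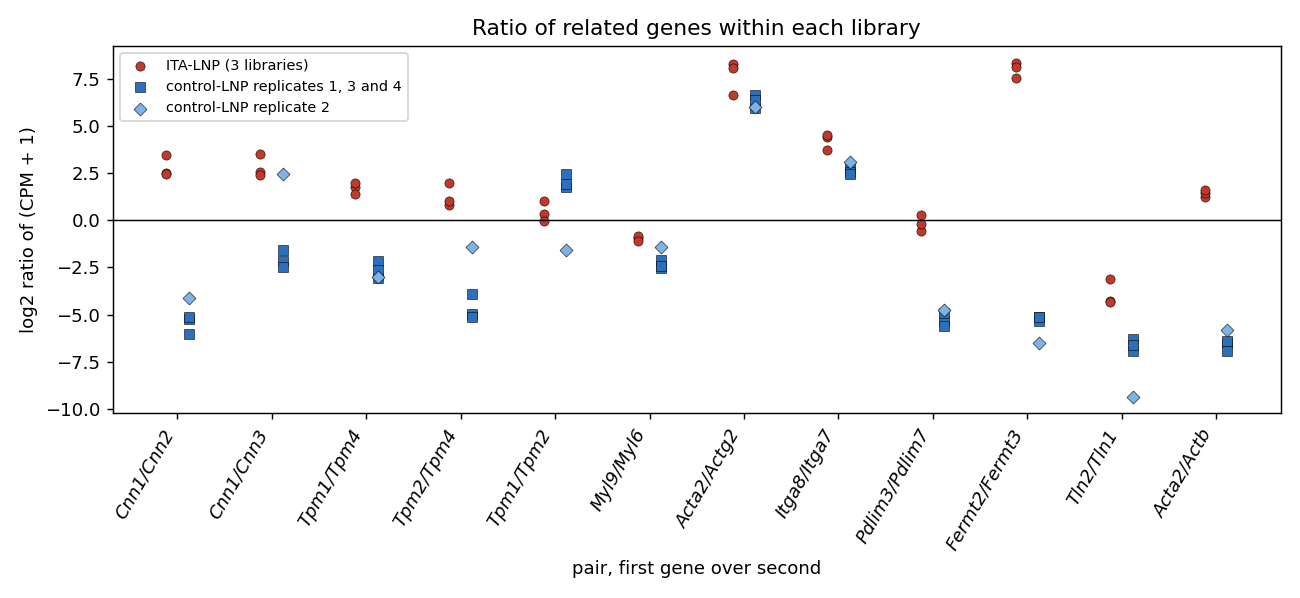
Log2 ratio of (CPM + 1) of 12 of the 13 pairs of related genes, 1 point per library. Points above 0 mean that the first gene is the more abundant; for Fermt2 to Fermt3 the ITA-LNP libraries lie at 7.51 to 8.34 and the control-LNP libraries at -6.50 to -5.11.

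Control-LNP replicate 2 differed from the other control libraries in some of the 39 genes and not in others. It lay below the range of replicates 1, 3 and 4 for 18 genes, within it for 11 and above it for 10. For 12 genes it was at least 4-fold below their mean, and these were Cnn3, Smtn, Mylk, Ppp1r12b, Ppp1r14a, Kcnmb1, Myocd, Csrp1, Pdlim5, Fhl1, Vcl and Lpp. The share of all genes in these places was not counted, and replicate 2 had fewer genes detected. The counts are therefore not shown to be particular to the 39 genes. The ratio of the mean of replicates 1, 3 and 4 to replicate 2 was 37.1 for Cnn3, 22.2 for Mylk and 9.33 for Lpp. Replicate 2 was below the others for 0 of the 13 genes with the lowest control-LNP percentages. For Actg2 and Itga7 it could not be, since the lowest of the others was 0 CPM. Des and Pdlim3 held only 2 to 8 reads in each control library, too few to place replicate 2. Among those of the 13 with more reads, Myh11 was at 7.03 CPM in replicate 2 and 7.02 CPM as the mean of the others, Acta2 at 102 and 97.9 CPM, and Cnn1 at 12.9 and 13.0 CPM. Tpm2 went the opposite way, at 138 against 20.3 CPM, as did Tln1, at 740.0 against 396 CPM. As a description across the 39 genes, which share depth and library, the correlation of log2(CPM + 1) was 0.989 to 0.994 among control-LNP replicates 1, 3 and 4, 0.886 to 0.890 between replicate 2 and these, 0.889 to 0.948 among the ITA-LNP libraries and 0.462 to 0.598 between the groups.

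**Figure D5:**
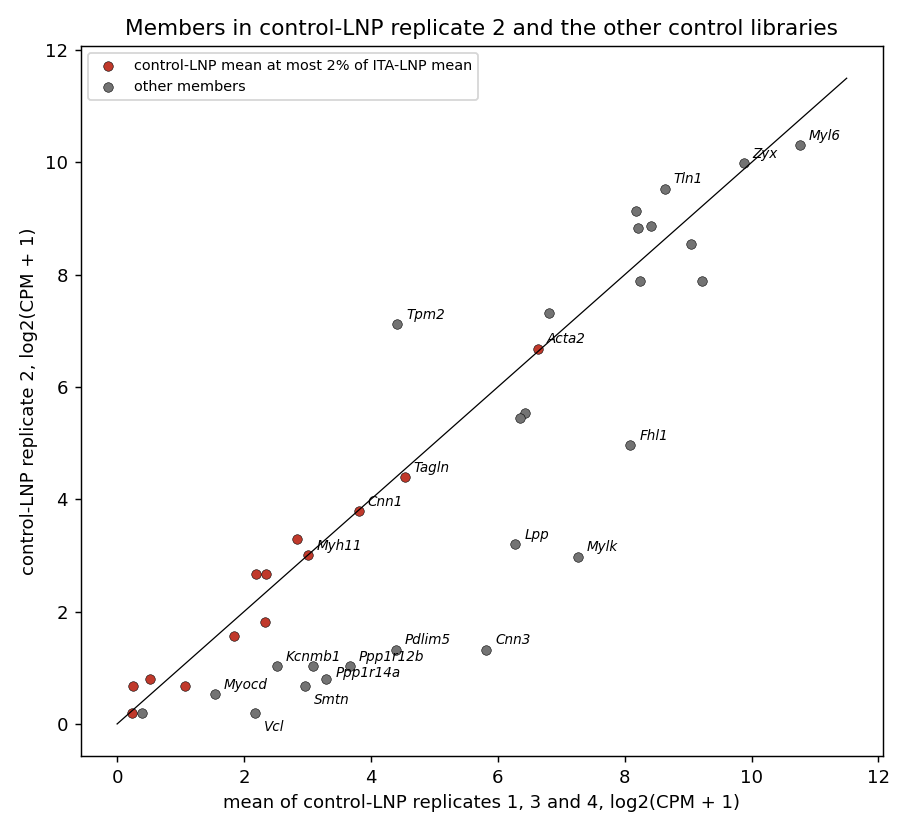
Level of the 39 genes in control-LNP replicate 2 against the mean of control-LNP replicates 1, 3 and 4, both as log2(CPM + 1), with the line of equal level. The 13 genes at no more than 2% of their ITA-LNP level (red) lie near the line, and 12 other genes, at least 4-fold lower in replicate 2 in CPM, lie below it.

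Further genes were counted from a contraction list and an adhesion list, chosen with earlier results of these data known. Both lists are broad. Gata6, Aoc3, Susd5 and Mustn1 in the first and Cav1 and Ptrf in the second are not core parts of the machinery. Of the 30 genes of the contraction list, 26 were tested. With ITA-LNP 14 of them were higher and 0 lower, against 10.3% and 5.15% of all genes tested. The median log2 fold change of the 26 was 3.30. The 4 with the smallest p were Hspb1, a small heat shock protein (464 against 1.83 CPM), Nexn, the actin-binding protein nexilin (553 against 7.98 CPM), Susd5 (163 against 0.714 CPM) and Mustn1 (186 against 2.40 CPM). Of the 32 genes of the adhesion list, 31 were tested. Of these 15 were higher and 2 lower, against 10.3% and 5.15% of all genes tested, with a median of 3.06. The 4 with the smallest p among the higher were Cav1, caveolin 1 (955 against 5.77 CPM, 7.19 ± 0.53), Tns1, tensin 1 (977 against 7.01 CPM), Pgm5, a plaque protein of muscle (175 against 0.995 CPM), and Lims2, a partner of integrin-linked kinase (168 against 0.483 CPM). The 2 lower genes were Fermt3, kindlin-3, at 0.746 against 163 CPM (-6.48 ± 0.69, adjusted p = 0.00033), and Itgb3, the integrin beta3 chain that platelets also carry, at 83.6 against 296 CPM (-1.99 ± 0.49, adjusted p = 0.0210). Itgb3 lost the call without ITA-LNP replicate 1 or 3, and without control-LNP replicate 1 or 4 (largest adjusted p 0.0613). Without control-LNP replicate 2, 17 genes of the contraction list were higher, and 19 of the adhesion list were higher and 4 lower. Of all genes tested, 15.4% were then higher and 16.0% lower.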

How the data were processed

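The values deposited by the authors are log10 of CPM + 1, in 1 table of 32544 genes and 7 libraries. The scale was worked out from the values, because 10 to the power of a value, less 1, sums to 1000000 in each column. Per the labels' protocols, 500.0 ng of total RNA went into QuantSeq 3′ libraries. Reads were placed on mm10 per the submitters' processing notes. For the aligner, counter, annotation and use of strand, nothing is stated in the sources used here. Whole reads were recovered from the steps between values for 100% of them, within a tolerance of 0.01 reads. A count of 0 allows up to 3 reads, or 0.412 to 0.591 CPM by library. This covers counting error only, since copies made by PCR were not told apart.

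Tests used log2(CPM + 1). The added 1 CPM understates the change of low genes. Genes with a mean of at least 1 were tested with limma-trend (limma 3.58.1, R 4.3.3), 3 ITA-LNP against 4 control-LNP libraries with no covariate, with Benjamini-Hochberg adjustment over all 12636 genes and a threshold of 0.05. The procedure was tested on simulated counts. Errors after ± are standard errors of fold changes or SD of levels and ratios, as stated. The members and lists were chosen with earlier results of these data known. All 39 members are named, and of the other lists the 4 genes with the smallest p in each direction. Of the 13 pairs of related genes, 1 is counted in the adjustment and is not reported here. Coordinates are from GENCODE M21 on mm10. The share of 3′ sequence in common with other genes was taken over 50-base words in the last 400.0 bases of GENCODE transcripts. Alternatives were other filters, pseudocounts and scalings, limma-voom on the recovered reads, a replicate block and leaving out each library. Median centring without control-LNP replicate 2 was added after the data were seen. Python 3.11.15 with pandas 2.3.3, numpy 2.4.6 and matplotlib 3.10.9 served for tables and plots.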

Additional observations from a re-analysis of the deposited data

Results flagged for a closer look

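In 77 sets of 4 control-LNP values, on the log2 scale, 9 had 1 library farther from the rest than Dixon's 95% critical value for 4 samples allows, where chance sets apart about 1 in 20. Of these 9, 7 were set apart by control-LNP replicate 2. It was the low value for Cnn3 (1.495 CPM), Smtn (0.598 CPM) and Fhl1 (30.2 CPM), and the high value for Dstn (159 CPM) and Susd5 (1.196 CPM). It was also the low value for the log2 ratios of Tpm1 to Tpm2 (-1.58) and of Fermt2 to Fermt3 (-6.50). Control-LNP replicate 1 was the high value for Synpo2 (6.89 CPM) and Flna (404 CPM).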

How the results depend on the processing

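Of the 30 genes called higher, 23 kept the call without any 1 library, and Myl9, Mylk, Ppp1r14a, Myocd, Pdlim5, Pdlim7 and Fhl1 lost it at least 1 time. Some of the 23 depended on the scaling. Among them Tpm1, Tpm2, Cald1 and Dstn did not pass with median centring (limma, adjusted p = 0.0987, 0.210, 0.404 and 0.178). Of the 39, 20 kept direction and side of the threshold under all 16 alternatives. Csrp1, Vcl and Tln1 are among these 20 and stayed on the side that did not pass. Voom and both other pseudocounts changed no call of a member. The count of higher genes among the 39 was 20 to 31 over the alternatives, and the lower count was 0 with median centring and 3 with median centring without control-LNP replicate 2. Leaving out 1 library gave 1 to 3 lower. Only Myl9 (-0.17, median centring) and Myl6 (0.20, quantile normalization) changed sign.

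Over all genes 1957 changed, against 3015 with quantile normalization, 4325 with median centring without control-LNP replicate 2, and 1387 to 4053 when 1 library was left out, the highest being without control-LNP replicate 2. The replicate number did not pair the libraries (correlation of deviations 0.0053, -0.010 and -0.017, with 1 of 3 ITA-LNP libraries correlating best with its own number). With a replicate block 1060 genes changed, and 26 of the 39 were higher. The genes of the contraction list had 9 higher members with median centring and 9 with the replicate block, in place of 14. The genes of the adhesion list had 9 higher with the block and 9 to 19 without 1 library, in place of 15. Their lower members, 2 in the report, were 5 with quantile normalization, 1 with the block, 4 with median centring without control-LNP replicate 2 and 1 to 4 without 1 library. The 0 pairs that passed became 8 with 4 CPM added. Without 1 library the smallest exact p is 0.0667 or 0.1, so the pairs were not retested. The cause of these changes was not tested. Depth limits Itga7, Pln, Actg2 and Des most, with 4, 6, 7 and 12 control-LNP reads.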
